A study of Mus musculus with 4 samples.

Results

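The genes of the cytosolic ribosomal proteins were examined for open chromatin at their promoters in the visceral fat of CD-1 mice. They were chosen by symbol from the protein-coding genes of curated RefSeq on chromosomes 1 to 19. Symbols starting with Rpl or Rps and a digit, or with Rplp, were taken, and so was Rpsa. The Rps6k kinases, symbols ending in -ps and genes of 1 exon were left out. This gave 82 of 20021 coding genes. Of these, 40 encode proteins of the large subunit, 30 proteins of the small subunit and 3 proteins of the stalk, which makes 73 core genes. Another 6 are paralogs, namely Rpl3l, Rpl7l1, Rpl22l1, Rpl36al, Rpl39l and Rps27l. The last 3 are Rps19bp1, which encodes a binding partner of Rps19 and no ribosomal protein, and the genes Rps23rg1 and Rpl37rt. Core genes on the X chromosome, such as Rpl10 and Rps4x, were outside this choice, and so was Fau, whose name does not match.

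Chromatin accessibility had been measured by ATAC-seq, in which a transposase cuts and tags open DNA, in nuclei of bulk tissue that holds many cell types. There were 2 groups of 2 libraries, each labelled with an age of 8 weeks and with the outbred stock CD-1. The control group came from a lineage whose gestating founders (F0) had received sesame oil. The BPA group came from a lineage whose founders had received bisphenol A, a plasticiser, at 50 mg/kg. Oil and bisphenol A alike were given by daily intraperitoneal injection from embryonic day 7.5 to 13.5. No sibling matings were made in either lineage. The titles call the BPA animals F3 and the study's methods call them F4, so their generation is uncertain. The labels gave neither sex nor batch. The peak lists of control 1, of control 2 and of the BPA pair were named in different ways, and the replicate number in the title of BPA 2 was not the one its list carried. Anything that went with these differences cannot be told apart from the treatment.

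A cytosolic ribosome has a small subunit, which reads the mRNA, and a large subunit, which joins the amino acids. Each holds ribosomal RNA and many proteins, most of them needed in a single copy per ribosome, and their genes are active in nearly every cell. Many of their mRNAs start with a C followed by a run of pyrimidines, the terminal oligopyrimidine or TOP motif, through which mTOR signalling controls their translation. Several of the genes also carry small nucleolar RNAs (snoRNAs) in their introns, which guide the modification of ribosomal RNA.

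The start windows of some members are given here because the pyrimidine run lies at the place where the peaks were scored. They come from RefSeq promoters of GRCm38.p6, the assembly named mm10, and each runs 5′ to 3′ on the strand of the gene over 25 bases before the annotated start and 25 from it on. Capitals mark the run of a C and at least 4 further pyrimidines that begins within 5 bases of the start, called a TOP-like start. The first 6 have the longest runs, and Rps6 and Rplp2 are shown as genes described further on.
Rpl27a (chr7:109519170-109519219, plus strand): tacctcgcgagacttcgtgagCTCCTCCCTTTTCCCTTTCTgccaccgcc
Rpl15 (chr14:18270962-18271011, minus strand): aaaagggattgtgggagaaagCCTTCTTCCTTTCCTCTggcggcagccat
Rpl35 (chr2:39005107-39005156, minus strand): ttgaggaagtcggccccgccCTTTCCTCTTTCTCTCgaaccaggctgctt
Rpl13a (chr7:45128721-45128770, minus strand): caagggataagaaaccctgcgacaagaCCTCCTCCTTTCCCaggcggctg
Rpl35a (chr16:33056457-33056506, plus strand): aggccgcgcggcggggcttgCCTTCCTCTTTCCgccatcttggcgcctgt
Rps10 (chr17:27635220-27635269, minus strand): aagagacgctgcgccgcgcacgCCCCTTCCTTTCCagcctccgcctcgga
Rps6 (chr4:86857343-86857392, minus strand): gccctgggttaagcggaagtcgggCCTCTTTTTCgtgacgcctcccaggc
Rplp2 (chr7:141447626-141447675, plus strand): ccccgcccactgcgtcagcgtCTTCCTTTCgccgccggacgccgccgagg
Other members had no such run at the annotated start. Rplp0, Rpl5 and Rpl11 are shown as core genes of this kind, and Rpl3l as a paralog whose promoter had no peak in any library. In the windows of Rpl5 and Rpl11 a pyrimidine run begins farther than 5 bases from the annotated start and is not marked. Where transcription starts was not measured, so a gene without a TOP-like start may still have a TOP motif.
Rplp0 (chr5:115559442-115559491, plus strand): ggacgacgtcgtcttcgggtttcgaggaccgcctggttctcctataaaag
Rpl5 (chr5:107900503-107900552, plus strand): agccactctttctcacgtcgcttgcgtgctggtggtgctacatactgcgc
Rpl11 (chr4:136053369-136053418, minus strand): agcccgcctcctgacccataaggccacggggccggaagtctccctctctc
Rpl3l (chr17:24727801-24727850, plus strand): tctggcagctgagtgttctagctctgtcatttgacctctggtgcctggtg

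RefSeq promoters of 300 bases, 250 before the start and 50 from it on, were found for 74 start sites of 62 members. They were also found for 19336 of the 24860 start sites of all coding genes. A TOP-like start was present at 31 of the 74 sites (41.9%), against 18.9% of all sites. The runs were between 5 and 20 bases long, with a median of 8. The letters CCGGAAG, a motif of ETS factors, were found on either strand at 26 sites (35.1%), against 12.1% of all. AAGATGGC or AAAATGGC, motifs of YY1, were found at 10 sites (13.5%), against 4.62%. GGGCGG, a motif of SP1, was found at 43 sites (58.1%), against 48.1%. TATAAA or TATATA beginning between 40 and 15 bases before the start, searched on the strand of the gene alone, was found at 4 sites (5.41%), against 3.72%. No site held both the ETS and the YY1 letters, 15 held the ETS letters with a TOP-like start, and 32 held neither the ETS letters nor a TOP-like start. The motifs were counted apart from each other, and a match is a description of letters and not of a bound factor. The members' promoters had a median G+C content of 59% and 22 CpG dinucleotides, against 57% and 14 over all sites.

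Longer stretches of 3 promoters show where these letters lay. Each covers 190 bases before the start and 20 from it on, with CCGGAAG and GGGCGG, or their reverse complements, in capitals.
Rpl15 (chr14:18270967-18271176, minus strand): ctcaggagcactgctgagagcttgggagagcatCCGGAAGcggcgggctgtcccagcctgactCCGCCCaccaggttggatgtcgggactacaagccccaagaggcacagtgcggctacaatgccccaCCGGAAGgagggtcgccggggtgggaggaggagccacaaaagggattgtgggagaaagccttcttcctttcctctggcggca
Rps6 (chr4:86857348-86857557, minus strand): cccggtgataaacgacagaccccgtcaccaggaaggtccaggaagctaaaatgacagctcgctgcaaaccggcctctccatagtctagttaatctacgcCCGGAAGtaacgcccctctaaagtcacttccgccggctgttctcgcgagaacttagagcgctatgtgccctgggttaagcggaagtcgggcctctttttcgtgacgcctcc
Rpl38 (chr11:114668390-114668599, plus strand): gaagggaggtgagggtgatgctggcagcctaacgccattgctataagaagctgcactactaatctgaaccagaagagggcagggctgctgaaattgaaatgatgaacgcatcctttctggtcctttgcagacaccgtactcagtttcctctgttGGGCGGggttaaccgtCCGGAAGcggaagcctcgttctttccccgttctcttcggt
In Rpl15 the ETS letters began 157 and 62 bp before the start and the SP1 letters 127 bp before it. The single ETS match began 91 bp before the start in Rps6 and 20 bp before it in Rpl38. In Rpl38 the SP1 letters lay upstream of the ETS letters, 36 bp before the start.

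The lists held between 72375 and 98060 peaks per library and no read totals. The pile-up of reads behind each peak, recovered from its fold and p-value, had a median of 22 and 23 in the controls and of 19 and 38 in BPA. The lowest local background was 2.85 and 2.7 in the controls and 1.16 and 3.8 in BPA. At the members' promoters the median pile-up was 60 and 56 in the controls and 89.5 and 289 in BPA, and over all coding genes with a promoter peak 56 and 55 in the controls and 77 and 252 in BPA. BPA 2 was highest on all of these measures, whereas BPA 1 was lowest over all peaks and above both controls at promoters, so they give no single order of depth. Promoters of 6 of 6 adipocyte marker genes had peaks in all 4 libraries, and those of 3 hepatocyte marker genes had none in any. An exact permutation test of 2 libraries against 2 cannot give a two-sided p below 0.333, so the groups are described with no test, and nothing says whether their spread is biological or technical.

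Nearly all ribosomal protein genes had an open promoter. A peak within 500 bp of a start site was present for 76 and 77 members in controls 1 and 2 and for 78 and 79 members in BPA 1 and 2. The shares over all coding genes were 63.4%, 62.2%, 65.1% and 68.4% in the same order. In all 4 libraries together 76 of the 82 members had a peak (92.7%), against 58.8% of all coding genes. Among the core genes it was 71 of 73. The large subunit had 39 of 40, the small subunit 29 of 30 and the stalk 3 of 3, while 4 of 6 paralogs had a peak in all 4. The peak covered a start site in all 4 libraries for 75 of the 76 members, a count not made over all coding genes.

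**Figure D1:**
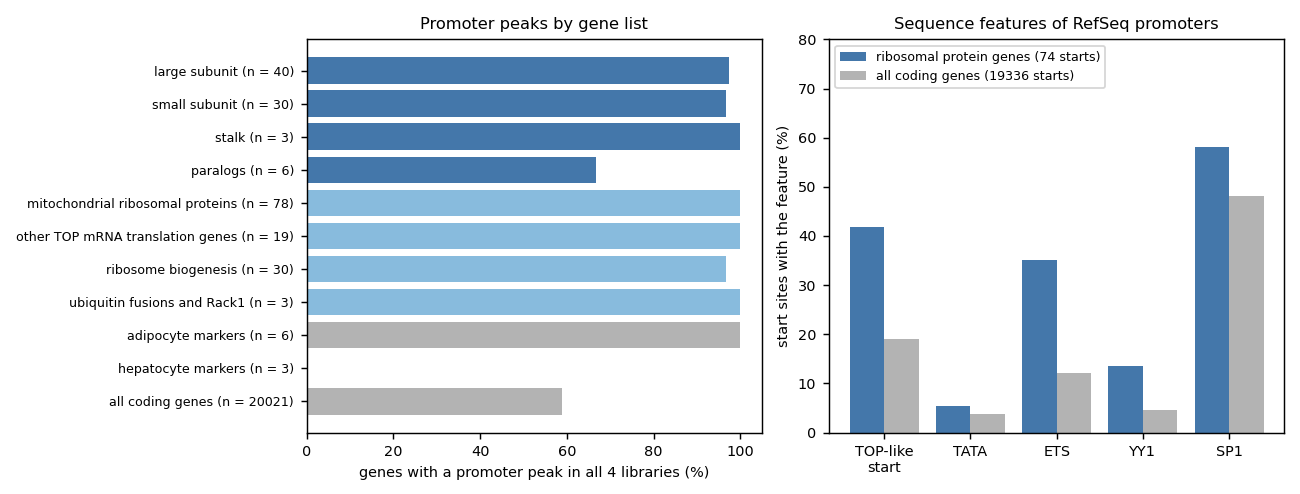
Left, the share of genes with a promoter peak in all 4 libraries (%, horizontal axis) for each gene list, with the number of genes in brackets. Right, the share of start sites (%, vertical axis) with each sequence feature for ribosomal protein genes and for all coding genes. The core lists stand at 96.7% or more on the left against 58.8% for all coding genes, and TOP-like starts stand at 41.9% against 18.9% on the right.

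The exceptions among the core genes were Rpl36 and Rps28. Rpl36 (chr17:56613395-56614246, plus strand), a large subunit gene, had no promoter peak in either control, where the nearest peaks lay 3229 and 3175 bp away. In BPA 1 it had a peak of 323 bp at rank 47.1, and in BPA 2 a peak of 500 bp at rank 39.9. The rank is the percent of the peaks of the same library with a −log10 q-value at least as high, so that a low rank means a strong peak. The pile-up at Rpl36 was 42 in BPA 1 and 117 in BPA 2. Rps28 (chr17:33823036-33824562, minus strand), a small subunit gene whose window also holds the start of Ndufa7, had no peak in control 1. Its ranks were 65.7 in control 2, 55.2 in BPA 1 and 28.5 in BPA 2. Both genes thus lay among the weakest promoters of the family where they had a peak at all.

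Of the paralogs, Rpl3l (chr17:24727826-24736143, plus strand) and Rpl39l (chr16:10170228-10174911, plus strand) had no promoter peak in any library. Rpl3l is known as the form of Rpl3 in heart and skeletal muscle, and Rpl39l as the form of Rpl39 in male germ cells. Their nearest peaks lay between 1678 and 3285 bp away for Rpl3l and between 8386 and 22327 bp away for Rpl39l. Rps23rg1 (chr8:3567998-3584776, plus strand) had no peak either, with the nearest 8143 bp away or more. Rpl37rt (chr5:115102922-115110268, minus strand) had a peak only in BPA 2 at rank 85.6 with its summit at −782 bp from the start, that is upstream.

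The other 4 paralogs had strong promoters. Rpl22l1, a paralog of Rpl22, ranked at 0.478 and 0.153 in controls and 1.89 and 1.73 in BPA. Rpl36al, a paralog of the X-linked Rpl36a, ranked at 1.08 and 2.94 in controls and 2.64 and 1.14 in BPA. Rps27l, a paralog of Rps27 and a known target of p53, ranked at 2.62 and 6.73 in controls and 1.93 and 0.932 in BPA. The controls were the stronger pair for Rpl22l1 and the weaker pair for Rps27l, and the groups overlapped for Rpl36al. Rpl7l1, a paralog of Rpl7 that takes part in ribosome assembly, ranked at 5.74 and 10.2 in controls and 8.13 and 2.99 in BPA, with overlapping groups. Rps19bp1 ranked at 18.2 and 20.3 in controls and 7.14 and 7.27 in BPA, with both BPA peaks stronger.

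Where present, the peaks of members were strong ones within their library. Their median rank was 5.87 and 8.55 in the controls and 7.13 and 5.03 in BPA. Over all coding genes with a promoter peak it was 9.31, 10.8, 9.32 and 6.88. Such ranks were not particular to the family, since other genes with TOP mRNAs, described further on, had lower median ranks in each library. Of the members with a peak, 64.5% and 57.1% in the controls and 69.2% and 89.9% in BPA were in the best 10% of the list. The same shares of all coding genes with a promoter peak were 52.2% and 48.2% in the controls and 52.6% and 64.9% in BPA. In all 4 libraries 37 members were among the best 10%, a count not made over all coding genes. The control mean of the library medians was 7.21 ± 1.89 (SD, n = 2) and the BPA mean 6.08 ± 1.48 (SD, n = 2), so the groups were closer than the SD of either. Without control 2 the control value became 5.87, which is lower than that of BPA.

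**Figure D2:**
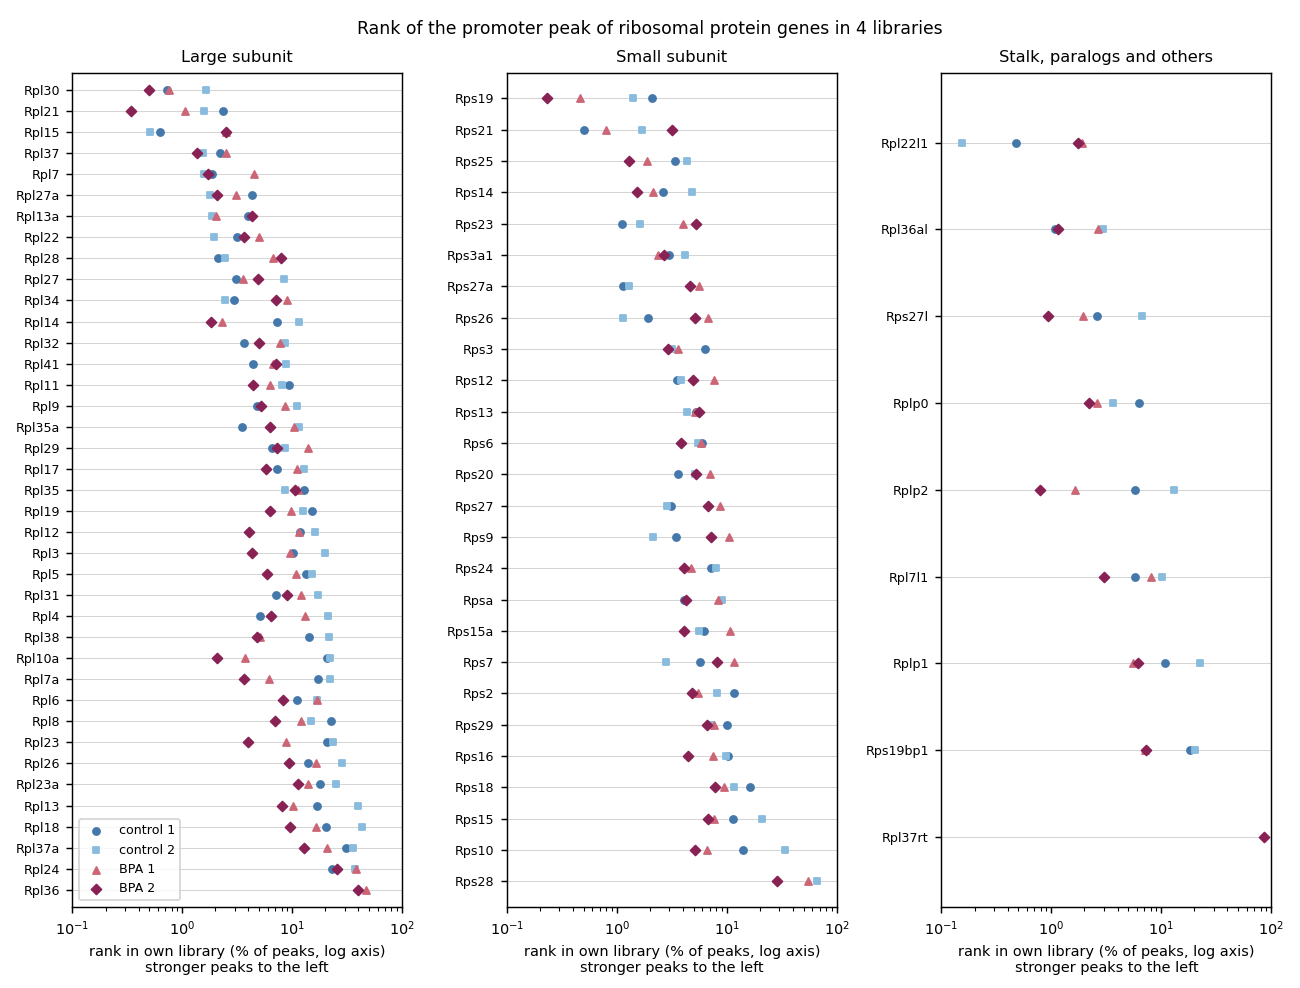
Rank of the promoter peak (percent of the library's own peaks, log axis, stronger peaks to the left) for members with a peak, with controls in blue and BPA libraries in red and purple, and members sorted by mean rank within each panel. Rpl30 has the best mean rank of the large subunit, and Rpl36, Rps28 and Rpl37rt lie at the weak end.

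Rpl30, Rps19, Rpl22l1 and Rpl21 were among the members with the best mean rank. Rpl30 (chr15:34440505-34443276, minus strand), which also binds mRNAs of selenoproteins, ranked at 0.725 and 1.65 in controls and 0.76 and 0.498 in BPA. The groups overlapped for Rpl30. Rps19 (chr7:24884592-24889811, plus strand), which is mutated in Diamond-Blackfan anaemia, ranked at 2.09 and 1.4 in controls and 0.464 and 0.229 in BPA. Rpl21 (chr5:146832890-146837032, plus strand), of the large subunit, ranked at 2.33 and 1.59 in controls and 1.06 and 0.341 in BPA. Both BPA libraries were stronger at these last genes, and every rank of these 4 members was below 3.

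At the weak end among members with 4 peaks were Rpl24, Rpl37a, Rpl18 and Rpl13. Rpl24 (chr16:55966275-55971437, plus strand), mutated in the Belly spot and tail mouse, ranked at 23.2 and 37 in controls and 38.2 and 25.3 in BPA. Rpl37a (chr1:72711260-72713813, plus strand) ranked at 30.6 and 35.7 in controls and 20.7 and 12.7 in BPA. The groups overlapped for Rpl24 and not for Rpl37a, where BPA was stronger. Rpl18 ranked at 20.2 and 43 in controls and 16.5 and 9.63 in BPA, and Rpl13 at 16.7 and 39.6 in controls and 10.1 and 8.00 in BPA. In controls 1 and 2 these 4 genes lay between ranks 16.7 and 43.0. Small subunit genes had median ranks of 5.20, 4.99, 6.91 and 5.06 in control 1, control 2, BPA 1 and BPA 2, and large subunit genes 7.24, 11.5, 8.93 and 5.50.

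The next question was for which members both libraries of 1 group ranked stronger than both of the other. This order does not compare the gap between the groups with the distance between replicates. Both BPA ranks were stronger than both control ranks for 33 of the 76 members (43.4%). Over all coding genes with 4 peaks it was 41.2%. Both control ranks were stronger for 15 members (19.7%), against 18.6%, and the groups overlapped for 28. Both shares of the family were close to those of all genes. In bulk tissue a change in the share of a cell type and a change per cell cannot be told apart. The median ratio of the control to the BPA rank was 1.36 over members and 1.37 over all genes. Leaving out control 2 raised the count of members stronger in controls to 27 (35.5%), with 28.1% of all genes under the same choice.

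The largest ratios of mean rank in favour of BPA belonged to Rplp2, Rpl10a, Rps19, Rpl14 and Rps10. Rplp2 (chr7:141447651-141451359, plus strand), an acidic stalk protein, ranked at 5.76 and 13.1 in controls and 1.65 and 0.789 in BPA. The BPA mean was stronger by a ratio of 7.76, although the controls differed from each other by more than the BPA libraries did. Rpl10a (chr17:28328471-28331033, plus strand), the protein of the L1 stalk, ranked at 20.6 and 22 in controls and 3.7 and 2.07 in BPA, a ratio of 7.38. Here the controls were close together and far from both BPA values. The peak of Rpl10a was also wider in BPA, with widths of 835 and 860 bp in controls and 1512 and 1638 bp in BPA. Rpl14 ranked at 7.24 and 11.5 in controls and 2.3 and 1.83 in BPA, a ratio of 4.53. Rps10 ranked at 14.1 and 33.6 in controls and 6.58 and 5.18 in BPA, a ratio of 4.05, with a wide gap between the controls. For Rps19, whose values stand above, the ratio was 5.03.

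In the other direction large ratios were those of Rpl22l1 (5.74), Rpl15, Rps27a and Rps26. Rpl15 (chr14:18267823-18270986, minus strand) ranked at 0.621 and 0.506 in controls and 2.47 and 2.5 in BPA, so that the controls were stronger by a ratio of 4.42. Rps27a (chr11:29545842-29548040, minus strand), made as a fusion with ubiquitin, ranked at 1.14 and 1.3 in controls and 5.55 and 4.62 in BPA, a ratio of 4.17. The replicates of both genes were close together in each group. Rps26 (chr10:128624529-128626506, minus strand), a protein at the mRNA exit channel, ranked at 1.94 and 1.14 in controls and 6.7 and 5.15 in BPA, a ratio of 3.85. The controls were again the stronger pair at Rps26.

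The rank is relative to the other peaks of a library, and folds over local background gave another view of the same peaks. The median fold of members was 7.04 and 7.90 in the controls and 12.1 and 11.3 in BPA. Over all coding genes it was 6.03 and 6.82 in the controls and 10.3 and 9.38 in BPA, so the medians were higher in BPA over all promoters too. At Rpl15, where the controls ranked higher, the folds were 9.8 and 12.2 in controls and 13.9 and 12.3 in BPA. At Rpl10a they were 5.02 and 5.81 in controls and 12.1 and 10.4 in BPA. The folds of Rpl15 were thus no lower in BPA, with control 2 and BPA 2 nearly equal, although its rank was weaker there. Ranked by fold in place of q-value, 29 members (38.2%) were stronger in BPA, against 39.6% of all coding genes, and 15 (19.7%) in controls, against 15.8%.

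**Figure D3:**
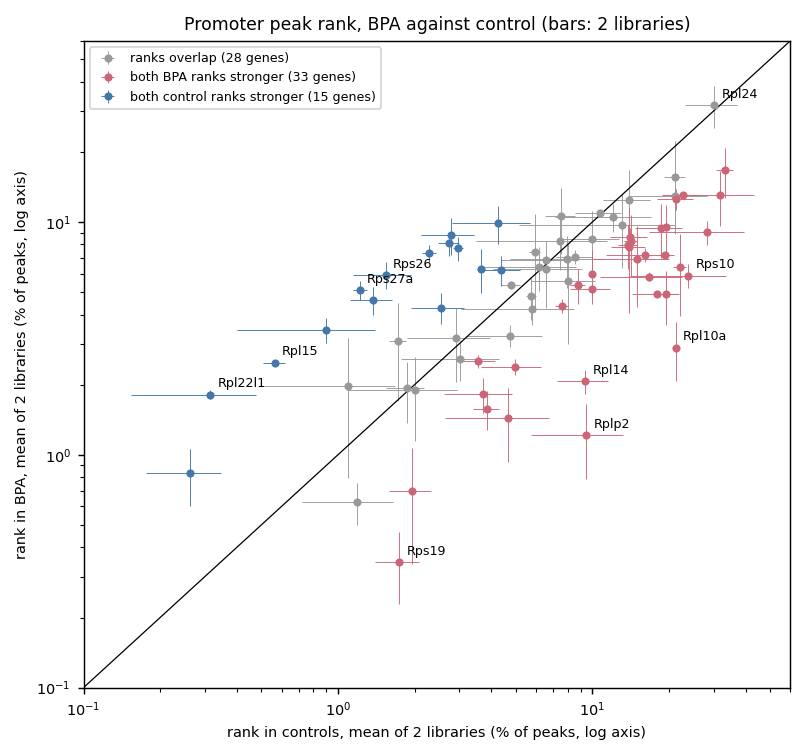
Mean rank of the promoter peak in the 2 BPA libraries (vertical, log axis) against that in the 2 controls (horizontal, log axis) for the 76 members with 4 peaks, with bars from one replicate to the other and a line of equal rank. Of the members, 33 lie below the line with both BPA ranks stronger and 15 above it with both control ranks stronger, and Rpl10a and Rplp2 lie farthest below it.

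The stalk, which recruits the GTPases of translation to the ribosome, was described as a group of its own. Its base Rplp0 ranked at 6.29 and 3.66 in controls and 2.58 and 2.19 in BPA, and the acidic Rplp1 at 10.7 and 22.5 in controls and 5.57 and 6.08 in BPA. With Rplp2, all 3 stalk genes had both BPA ranks stronger than both control ranks. With 3 genes this is a description only, and 41.2% of all coding genes with 4 peaks showed the same order.

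Among members with roles beyond the ribosome or a known signalling link, group differences were small or absent for some and not for others. Rps6, the substrate of the S6 kinases, ranked at 5.99 and 5.48 in controls and 5.79 and 3.81 in BPA. Rpsa, known also as a laminin receptor, ranked at 4.06 and 9.08 in controls and 8.3 and 4.26 in BPA. The groups overlapped at both genes. Rpl5, which with Rpl11 and 5S RNA restrains Mdm2, ranked at 13.3 and 15 in controls and 10.7 and 5.88 in BPA. Rpl11 ranked at 9.34 and 8.13 in controls and 6.3 and 4.42 in BPA, and Rpl3, near the catalytic centre of the large subunit, at 10.1 and 19.9 in controls and 9.58 and 4.31 in BPA. For these last 3 genes both BPA libraries ranked stronger, in Rpl3 with the narrowest gap between the groups. Other members stronger in BPA included Rpl7a, Rpl8, Rpl12, Rpl13, Rpl18, Rpl19, Rpl21, Rpl23, Rpl23a, Rpl37a, Rpl38, Rps2, Rps3a1, Rps14, Rps15, Rps16, Rps18, Rps24, Rps25, Rps27l and Rps19bp1. Those stronger in controls besides the ones above included Rpl22, Rpl28, Rpl34, Rps7, Rps9, Rps12, Rps20, Rps23 and Rps27.

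Across the 76 members, ranks of replicates followed each other more closely than ranks of different groups. Spearman's rho was 0.877 between the controls and 0.857 between the BPA libraries, and between 0.534 and 0.657 for the 4 pairs across groups. Over the 11773 coding genes with 4 peaks it was 0.882, 0.914 and between 0.663 and 0.782. These are correlations across genes, which are not independent, and each library enters several pairs.

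Promoter peaks of members were somewhat narrower than those of all coding genes. Their median width was 1056 and 912 bp in the controls and 971 and 1156 bp in BPA, against 1207, 977, 1009 and 1300 bp over all coding genes. The control mean was 984 ± 102 bp (SD, n = 2) and the BPA mean 1063.5 ± 131 bp (SD, n = 2), again closer than the SD of either group. The widest peak of a member lay at Rpl41 in BPA 2, with 2889 bp against 729, 560 and 705 bp in control 1, control 2 and BPA 1. Its summit there lay 1406 bp downstream of the start, past the 3′ end of the gene (chr10:128548110-128549168, minus strand). The width, rank and summit of Rpl41 in BPA 2 may therefore not describe its promoter alone. Rpl7 had wide peaks throughout, of 2258 and 2357 bp in controls and 2088 and 2189 bp in BPA.

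The summit, the highest point of a peak, was listed upstream of the start site for most members. How reads were extended or shifted in peak calling is not given in the sources used here, and the shortest peaks were 227 and 184 bp long in the controls and 239 and 299 bp in BPA. Positions may therefore carry an offset that differs between libraries, and its part in the values was not tested. The median summit of members lay at −79.5 and −70 bp in the controls and −28 and −22 bp in BPA, with negative values upstream of the nearest start. Over all coding genes it was −38, −49, −4 and 18 bp. The control mean was −74.75 ± 6.72 bp (SD, n = 2) and the BPA mean −25 ± 4.24 bp (SD, n = 2), which lay 49.75 bp farther downstream, and this exceeded the spread of both groups. The same difference over all coding genes was 50.5 bp. In each library the members' median lay farther upstream than that of all genes. Over members whose window holds no start of another gene the median was −61 and −68 bp in the controls and −28 and 8 bp in BPA, so the BPA libraries lay farther apart there.

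Both BPA summits lay downstream of both control summits for 34 members (44.7%), against 33.3% of all coding genes. Both lay upstream for 10 members (13.2%), against 12.9%, and the summits overlapped for 32. Within 100 bp of a start site lay the summits of 42 and 47 members in the controls (55.3% and 61%) and of 54 and 48 in BPA (69.2% and 60.8%). Among all coding genes with a promoter peak the shares were 47.8% and 53.6% in the controls and 49.5% and 46.4% in BPA. In all 4 libraries this held for 20 members, including Rpl5, Rpl11, Rplp0, Rps6 and Rpl10a. The summits of 36 members were upstream in all 4 libraries and those of 5 downstream in all 4, namely Rpl21, Rpl23, Rpl24, Rpl37a and Rps29. These counts over all 4 libraries were not made for all coding genes. Per library, 81.6% and 87.0% of the members' summits were upstream in the controls and 62.8% and 59.5% in BPA. Over all coding genes with a promoter peak the shares were 60.4%, 67.1%, 50.8% and 44.9% in the same order.

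**Figure D4:**
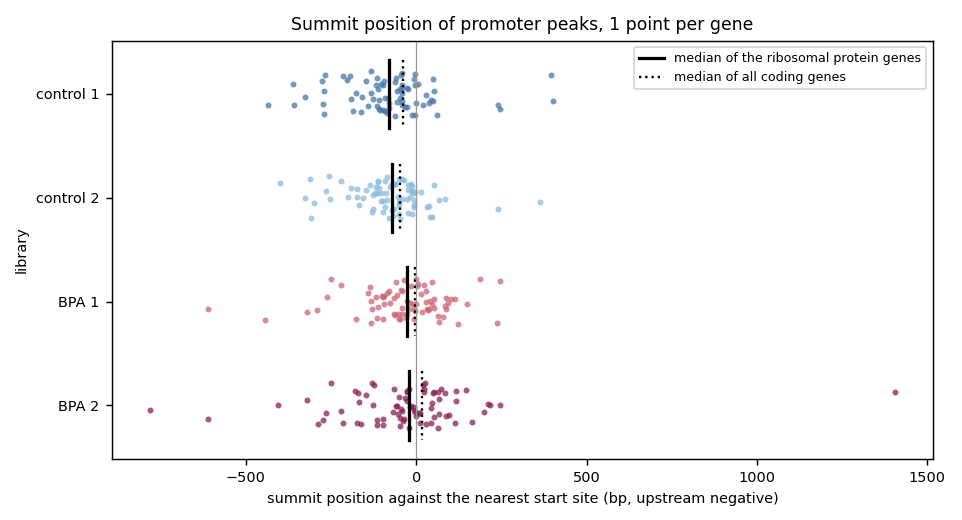
Position of the peak summit against the nearest start site (bp, upstream negative) for each member with a peak, in the 4 libraries, with solid bars at the median of the members and dotted bars at that of all coding genes. The solid bars lie at −79.5, −70, −28 and −22 bp from top to bottom, upstream of the dotted bar in each library, and single points at −782 and 1406 bp in BPA 2 belong to Rpl37rt and Rpl41.

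Farther than 150 bp from every start lay the summits of 35 of the 76 members in at least 1 library, and of 8 members in all 4, counts not made over all coding genes. Each of these 8 was upstream throughout, and Rps19, Rps25, Rps26, Rpl7, Rpl7l1, Rpl13a and Rpl15 were among them. Rps19 had its summit at −362 and −299 bp in controls and −322 and −321 bp in BPA. Rps25, which serves internal ribosome entry on some mRNAs, had it at −435 and −401 bp in controls and −443 and −405 bp in BPA. Rpl7 had it at −360 and −264 bp in controls and −611 and −611 bp in BPA, where both BPA summits were farther upstream than both of the controls. Rpl15 had it at −178 and −173 bp in controls and −178 and −173 bp in BPA, the most stable place of the 76, within the promoter stretch printed above. Rps26 had it at −325 and −325 bp in controls and −262 and −266 bp in BPA, and Rpl13a, known also from translational silencing in inflammation, at −267 and −220 bp in controls and −220 and −220 bp in BPA. The controls shared 1 position at Rps26, and both BPA summits lay nearer to the start there. Rpl7l1 had it at −277 and −312 bp in controls and −292 and −289 bp in BPA.

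In 3 libraries the summit was that far away at Rpl37a and Rpl38, on the downstream side where it passed 150 bp. Rpl38, known for its part in the translation of Hox mRNAs, had it at 402 and −114 bp in controls and 188 and 216 bp in BPA. In 2 libraries this held for Rpl4, Rpl7a, Rpl8, Rplp2 and Rps18, among others. Rplp2 had its summit at −272 and −309 bp in controls and −131 and −128 bp in BPA and Rpl7a at −274 and −199 bp in controls and −98 and −98 bp in BPA, far upstream in both controls and nearer in both BPA libraries. In 1 library it held, among others, for Rpl3, Rpl6, Rpl17, Rpl23, Rpl23a, Rpl24, Rpl30, Rpl31, Rpl32, Rpl35a, Rpl36al, Rpl41, Rplp1, Rps12, Rps19bp1, Rps21, Rps24 and Rps27a. Between replicates the summit of a member moved by a median of 47.5 bp in controls and 24.5 bp in BPA, and by 65 bp across groups.

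Ribosomal protein genes were compact. Their median length was 3169.5 bp, against 16861 bp over all coding genes, with a first exon of 69.5 bp against 194 bp and a first intron of 381.5 bp against 2499 bp. A single annotated start site was present in 68 members (82.9%), against 82.7% of all. RefSeq placed snoRNA genes inside 28 members (34.1%), against 1.01% of all coding genes. They held 56 snoRNAs, with 5 in Rpl4 and 4 in Rpl7a and in Rpl13a.

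Another gene started within 500 bp of 16 members (19.5%, against 12.4% of all coding genes), on the opposite strand in each case. Such pairs were Rps27a with Clhc1, Rpl15 with Nkiras1, Rpl9 with Lias, Rpl7a with Med22, Rpl4 with Zwilch, Rps18 with Vps52, Rps25 with Trappc4 and Rps28 with Ndufa7. The others were Rpl22l1 with Gm32950, Rps10 with Gm15420, Rpl36al with Mgat2 and Rpl12 with Lrsam1. To these come Rpl18 with Sphk2, Rpl35a with Iqcg, Rps2 with Snhg9 and Rps27 with Rab13. Rps10, Rpl22l1, Rpl15 and Rps27a, with large ratios between the groups, thus had shared windows. A peak between such starts cannot be given to one gene. The nearest start of Nkiras1 lay 150 bp upstream of that of Rpl15, near the summits of that peak. Members with such a neighbour had median ranks of 4.75, 11.3, 7.6 and 5.00 in control 1, control 2, BPA 1 and BPA 2, and the others 6.22, 8.47, 7.13 and 5.03.

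Members with a TOP-like start were set beside those without one, among the members whose promoter sequence was found. This split rests on the annotated starts, and Rpl5 and Rpl11, with runs farther off, count as without. The 28 with a TOP-like start and 4 peaks had a median mean rank of 5.75, between 1.06 and 22.3. The 29 without had 7.05, between 1.05 and 30.9. With the ETS letters it was 6.58 in 24 members and without them 6.70 in 33. The ranges overlapped in both comparisons.

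Other genes of protein synthesis also had open promoters. Mitochondrial ribosomal proteins, encoded in the nucleus for the ribosomes of mitochondria, had a peak in all 4 libraries for 78 of 78 genes. Their median ranks were 7.38, 7.27, 8.56 and 6.32 in control 1, control 2, BPA 1 and BPA 2. Their median summits lay at −25.5, −44.5, 12 and 9.5 bp. Both BPA ranks were stronger for 31 of them and both control ranks for 23. Over all coding genes with 4 peaks, against which the lists below can also be read, the shares were 41.2% and 18.6%. Of the translation factors and other genes with TOP mRNAs, 19 of 19 had a peak in all 4, with 3 stronger in BPA and 4 in controls. Their median ranks were 5.15, 4.51, 5.11 and 3.83 in control 1, control 2, BPA 1 and BPA 2. These were stronger than the ranks of the members in each library. Their median summits, at −90, −86, −69 and −46 bp, also lay farther upstream than those of the members. Among genes of ribosome assembly it was 29 of 30, with 5 stronger in BPA and 11 in controls. The exception was Tsr1, an assembly factor of the small subunit, with no peak in control 2. The assembly genes had median ranks of 4.46 and 4.05 in the controls, stronger than the members, and of 7.24 and 5.36 in BPA. Their median summits lay at −27.5 and −46 bp in the controls and 10 and 4.5 bp in BPA.

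Fau, which encodes a fusion of a ubiquitin-like protein with a ribosomal protein, was not strong. It ranked at 51.2 and 39.1 in controls and 12.1 and 12.1 in BPA, with a peak that Mrpl49 shares, and both BPA libraries were stronger. Rack1, a scaffold protein on the small subunit, ranked at 3.47 and 1.2 in controls and 2.42 and 1.91 in BPA, with overlapping groups. The 6 adipocyte marker genes had median ranks of 56.5 and 27.1 in the controls and of 66 and 53.3 in BPA. Among them Adipoq, which encodes adiponectin, ranked at 58.6 and 20.3 in controls and 67.2 and 51.2 in BPA. Pparg, the nuclear receptor that directs fat cell formation, ranked at 43.2 and 33.8 in controls and 15.8 and 7.16 in BPA, with both BPA libraries stronger. The groups overlapped at the other 5.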

How the data were processed

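ATAC-seq libraries of visceral adipose tissue were made from 2 control and 2 BPA samples. The authors trimmed the reads with Trim Galore and mapped them to mm10 with Bowtie2 2.3.5.1. They dropped PCR duplicates and reads that mapped to several places, and ran MACS2 2.2.7.1 on 1 library at a time. They also mapped the reads to their own CD-1 genome and reported some peaks called with either genome alone. Further settings of the peak caller were not given in the sources used here. Since mm10 is not the genome of CD-1 mice and ribosomal protein genes have many processed pseudogenes, reads in variable or copied sequence may have been lost, mainly in exons. The deposited lists give a score of 10 times the −log10 q-value, a fold (ratio of summit pile-up to local background), a −log10 p-value, a −log10 q-value and the summit of each peak. No read totals were given, so pile-ups were recovered from each fold and p-value. For 100% of peaks the recovered pile-up gave the p-value back with a relative error of 1e-04 or less.

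Start sites came from curated RefSeq transcripts of GRCm38.p6. A peak was assigned to a gene when it lay within 500 bp of any start, and the peak with the highest −log10 q-value stood for the gene. Its rank is the percent of the library's peaks with a −log10 q-value at least as high. Scoring and pile-up recovery were tested on simulated data. Python 3.11.15, numpy 2.4.6, pandas 2.3.3, scipy 1.17.1 and matplotlib 3.10.9 were used. No test between groups was run. Promoter sequences came from RefSeq, which gave entries for 62 members and lacked 20.

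Named genes were all members lacking a peak in a library, the 5 best and 5 worst by mean rank and up to 5 in each direction with the largest ratio between groups that did not overlap. Members with a summit over 150 bp from every start, the stalk genes, all paralogs, Rps19bp1 and Rpsa, Rps27a, Rps6, Rps19, Rpl5, Rpl11 and Rpl3 were named as well. Some genes that this rule selects are not reported here by name, though they enter all counts and medians. Other genes named in lists, neighbours of members and single pathway genes were picked after their values were seen. The members, gene lists and alternatives were chosen with earlier results of these data known. The alternatives were other windows, the summit in the window, a −log10 q-value of at least 5, the best 20000 peaks, equal numbers of peaks, the nearest peak, rank by fold, core genes, members without a neighbouring start and leaving out each library.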

Additional observations from a re-analysis of the deposited data

How the results depend on the processing

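Of 154 values under 14 alternatives, 146 stayed close to the reported ones. Close means within 1.5 times for counts and within the SD of the group for medians. This SD comes from 2 libraries, and several of the values could not change. Leaving out a control left the BPA medians as they were, and the reverse. Each group was judged on its own, so a change in the distance between the groups was not counted. The number that stayed close is therefore no measure of robustness. The median rank of members moved to 11.52 in controls and 7.64 in BPA once peaks below a −log10 q-value of 5 were dropped, and to 27.8 and 24.1 among the best 20000 peaks, where the shorter lists alone raise the percent. With the best 20000 peaks the median summit in controls lay at −82.25 bp. Over members with no neighbouring start it lay at −64.5 bp in controls and −10 bp in BPA, the latter from −28 and 8 bp, and the cause was not tested. Leaving out 1 library gave between 18 and 27 members stronger in controls (23.7% to 35.5%), with the highest count without control 2. Over all coding genes the shares were between 21.8% and 32.5%. Between 33 and 48 members were stronger in BPA (43.4% to 62.3%), with the highest count without control 1. The shares of all coding genes were between 43.9% and 59.8%. With 1 library fewer this order is easier to meet. Among all 82 members, the count with a peak in every library kept was 66 with the best 20000 peaks and between 74 and 77 otherwise. It was 71 of the 73 core genes and 61 of the 66 members with no neighbouring start.

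No paired analysis was possible because no result came from a test and no label ties a control to a BPA animal. The precision is limited by 2 libraries per group and by peak lists without read totals, in which an absent peak says only that none passed the threshold of the peak caller at that depth.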

Other observations

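The processed pseudogenes of ribosomal protein genes, which are mostly reverse-transcribed copies without the promoter of the parent gene, gave few peaks. RefSeq held 281 such loci with symbols ending in -ps, of which 279 lay more than 1000 bp from every start site. Of these 279, 5 and 3 overlapped a peak in the controls and 4 and 7 in BPA. In this order the shares were 1.79%, 1.08%, 1.43% and 2.51%, against 2.87%, 3.07%, 2.36% and 3.74% of all pseudogenes away from start sites. In total 13 loci had a peak, and none had one in all 4 libraries. Rpl21-ps7 on chromosome 17 and Rpsa-ps12 on chromosome 4 had one in 3 libraries each. Reads that fit both a copy and its parent gene had been removed, and the part of this step in the low shares was not tested.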
